A study of Mus musculus with 8 samples.

Results

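The imprinted genes *Igf2*, *Peg3*, *Sfmbt2*, *Dlk1*, *Plagl1* and *Mest* were followed gene by gene through RNA sequencing of MEFs (mouse embryonic fibroblasts), a culture of connective tissue cells. These 6 genes were chosen by name from a table of 875 genes, with earlier results of these data known. That all 6 are in it was therefore fixed in advance, and counts of the 6 below carry this limit. There were 4 groups of 2 libraries each, made from MEFs of an E13.5 embryo whose *EED* gene carries loxP sites around exons 3 to 6. The control group was the parental *EED*-floxed line. EZHIP cells expressed the human protein EZHIP and K27M cells expressed the H3.3 K27M mutant histone, each delivered by lentivirus. EED-null cells had lost the floxed exons to Cre recombinase, which was also delivered by lentivirus, and were grown from a single clone, so clone and genotype cannot be told apart. The floxed allele is common to all 4 groups. *Eed* is not among the 875 genes, so its deletion was not checked in these values. Nothing in the labels says that the 2 libraries of a group came from separate cultures, and p-values then measure only the spread between these libraries, which may be technical.

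The authors restricted the table to genes that differed between EZHIP and control cells, and the means of those groups differ by at least 2-fold for every gene. By group means, 495 genes were higher and 380 were lower in EZHIP cells. The difference between EZHIP and control cells is therefore given below as a description, with no test. Any comparison that uses either group is affected by this choice of genes, and only K27M against EED-null uses neither. Values are normalized expression, the estimated reads of a gene divided by a size factor of the library, and they are not scaled by gene length. Estimated reads summed over the 875 genes came to 306290.0 and 424561 for the control pair, 264279 and 269660.0 for the EZHIP pair, 350472 and 400267 for the K27M pair, and 209390.0 and 294073 for the EED-null pair. Differences were tested with limma on log2(value + 1) with Benjamini-Hochberg adjustment over the 875 genes, and a gene was called at an adjusted p under 0.05 and at least 2-fold. An exact permutation test of 2 libraries against 2 cannot go below a two-sided p of 0.333, so each call depends on limma's pooling of variance over genes. In bulk RNA, a change in the share of cells that express a gene and a change in RNA per cell cannot be told apart.

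Genomic imprinting restricts the expression of a gene to the copy inherited from a given parent. At most imprinted loci the copies are told apart by DNA methylation that was set in the germ line of a single parent, which in the domains of *Igf2* and *Dlk1* lies on the paternal copy. At some loci in extraembryonic tissue the inactive copy carries trimethylation of lysine 27 on histone H3. That mark is written by Polycomb repressive complex 2, which needs its subunit EED and is inhibited by EZHIP and by H3 K27M. All 6 genes are best known for expression from the paternal copy. Several of them act on fetal growth, and cells of the embryonic mesenchyme are a place where paternally expressed growth genes are active before birth. The values used here do not separate the parental copies.

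CpG dinucleotides, the substrate of DNA methylation and a feature of the DNA to which Polycomb repressive complex 2 is recruited, were counted in the 250 bases before each start of transcription in RefSeq (build GRCm38.p6). All 6 genes matched. Over 32851 windows of this length the median was 6 CpG, the quartiles were 2 and 16, and 92.1% held at least 1. The windows shown lie at the outermost start of a gene that was higher than control in all 3 lines by its means (*Sfmbt2*), of one that was lower in all 3 (*Plagl1*) and of one that was lower in EZHIP and K27M cells (*Mest*). No other RefSeq gene overlaps them, and 11 bases of the *Sfmbt2* window lie inside the gene's own RefSeq model. The *Sfmbt2* window is at chr2:10370201-10370450 on the plus strand, the *Plagl1* window at chr10:13090582-13090831 on the plus strand, and the *Mest* window at chr6:30733256-30733505 on the plus strand. Capitals mark each CG.
Sfmbt2: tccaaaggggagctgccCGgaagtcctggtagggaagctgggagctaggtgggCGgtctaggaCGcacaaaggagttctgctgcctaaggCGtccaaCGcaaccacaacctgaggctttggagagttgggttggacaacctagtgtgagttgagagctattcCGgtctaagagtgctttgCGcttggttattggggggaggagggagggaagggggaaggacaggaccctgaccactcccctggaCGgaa
Plagl1: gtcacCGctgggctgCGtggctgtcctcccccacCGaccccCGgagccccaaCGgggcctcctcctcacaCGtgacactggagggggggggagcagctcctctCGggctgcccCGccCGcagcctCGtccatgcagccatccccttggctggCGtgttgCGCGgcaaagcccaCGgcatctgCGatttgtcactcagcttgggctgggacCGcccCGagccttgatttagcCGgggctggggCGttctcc
Mest: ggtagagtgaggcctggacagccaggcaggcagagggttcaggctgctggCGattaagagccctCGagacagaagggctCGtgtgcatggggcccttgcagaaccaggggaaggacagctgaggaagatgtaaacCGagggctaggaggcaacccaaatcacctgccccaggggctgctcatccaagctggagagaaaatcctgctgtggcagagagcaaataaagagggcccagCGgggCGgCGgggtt

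The *Plagl1* window held 19 CpG, a count reached by 19.7% of all windows. The outermost windows of *Sfmbt2* and *Mest* held 8 and 7, which 43.0% and 46.3% of windows reached. Windows at further starts, which lie inside these genes, held more, with 15 CpG for *Sfmbt2* and 14 in each of 2 overlapping windows for *Mest*. *Igf2* has 4 windows, with 1, 10, 22 and 6 CpG, of which the last 3 lie inside the gene. Those with 1 and 10 CpG overlap *Igf2os*. *Peg3* and *Dlk1* have 1 window each, and each held 8. The *Dlk1* window lies wholly inside the RefSeq model of *Dlk1*, and the *Peg3* window overlaps *Usp29* and 43 bases of *Peg3*, so both hold transcribed sequence. The counts describe these windows alone, and methylation was not measured in the values used here.

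**Figure D1:**
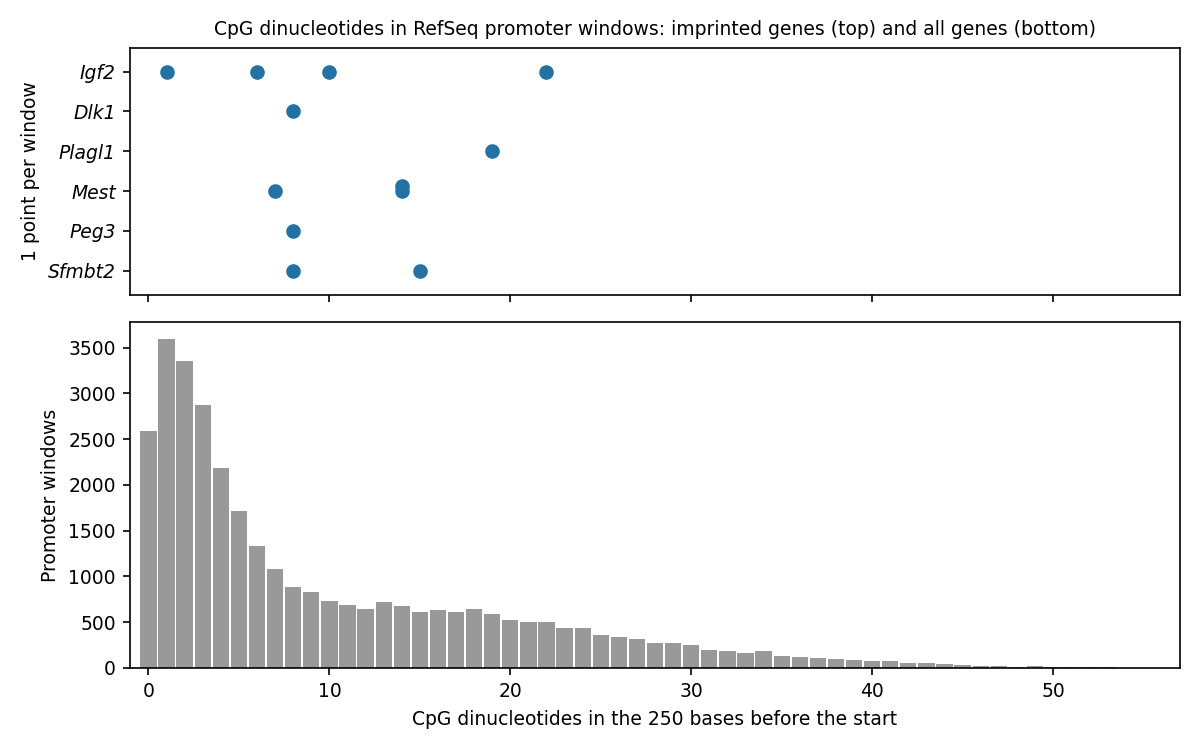
CpG dinucleotides in the 250 bases before each RefSeq start. The top panel has 1 point per window for each imprinted gene, and the bottom panel shows the number of windows of all genes at each count. *Plagl1* has 19 and the windows of *Igf2* run from 1 to 22, while the median of all windows is 6.

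*Igf2* encodes insulin-like growth factor 2, a secreted peptide that drives growth of the fetus and placenta. The gene (ENSMUSG00000048583.9) lies at chr7:149836673-149852721 on the minus strand of mm9. Its normalized expression reached 3589.9 and 3454 in the control libraries, 8919 and 8644 with EZHIP, 2301 and 2495 with K27M, and 2649.6 and 2438 in EED-null. Both EZHIP libraries stood far above every other library, and the K27M and EED-null libraries overlapped with each other below control. The means were 3522 ± 96.0 (SD, n = 2) in control, 8781 ± 195 with EZHIP, 2398 ± 138 with K27M and 2544 ± 149.6 in EED-null, so that EZHIP was 2.49-fold higher than control. Against EZHIP cells, *Igf2* was called lower in K27M, 3.66-fold (log2 difference -1.87, standard error 0.10, adjusted p = 1.69e-05), and in EED-null, 3.45-fold (log2 difference -1.79, adjusted p = 5.92e-05). Both K27M libraries and both EED-null libraries were below both control libraries, by 1.47-fold (adjusted p = 0.0028) and 1.38-fold (adjusted p = 0.00557), which is under the 2-fold threshold. With libraries rescaled to a common median, the K27M difference from control was called lower (-1.18) and the EED-null difference was not called (-0.90). K27M and EED-null differed by -0.09 on the log2 scale (95% interval -0.34 to 0.17, adjusted p = 0.475), or by -0.28 with libraries rescaled to a common median (adjusted p = 0.035).

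Of the 6 genes, *Igf2* was the only one whose mean was higher than control in EZHIP cells and lower than control in both other lines. The annotation places the antisense gene *Igf2as* on the opposite strand and 1 microRNA gene inside *Igf2*. Whether the counting used strand is not given in the sources used here, so reads from overlapping genes on opposite strands cannot be told apart.

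**Figure D2:**
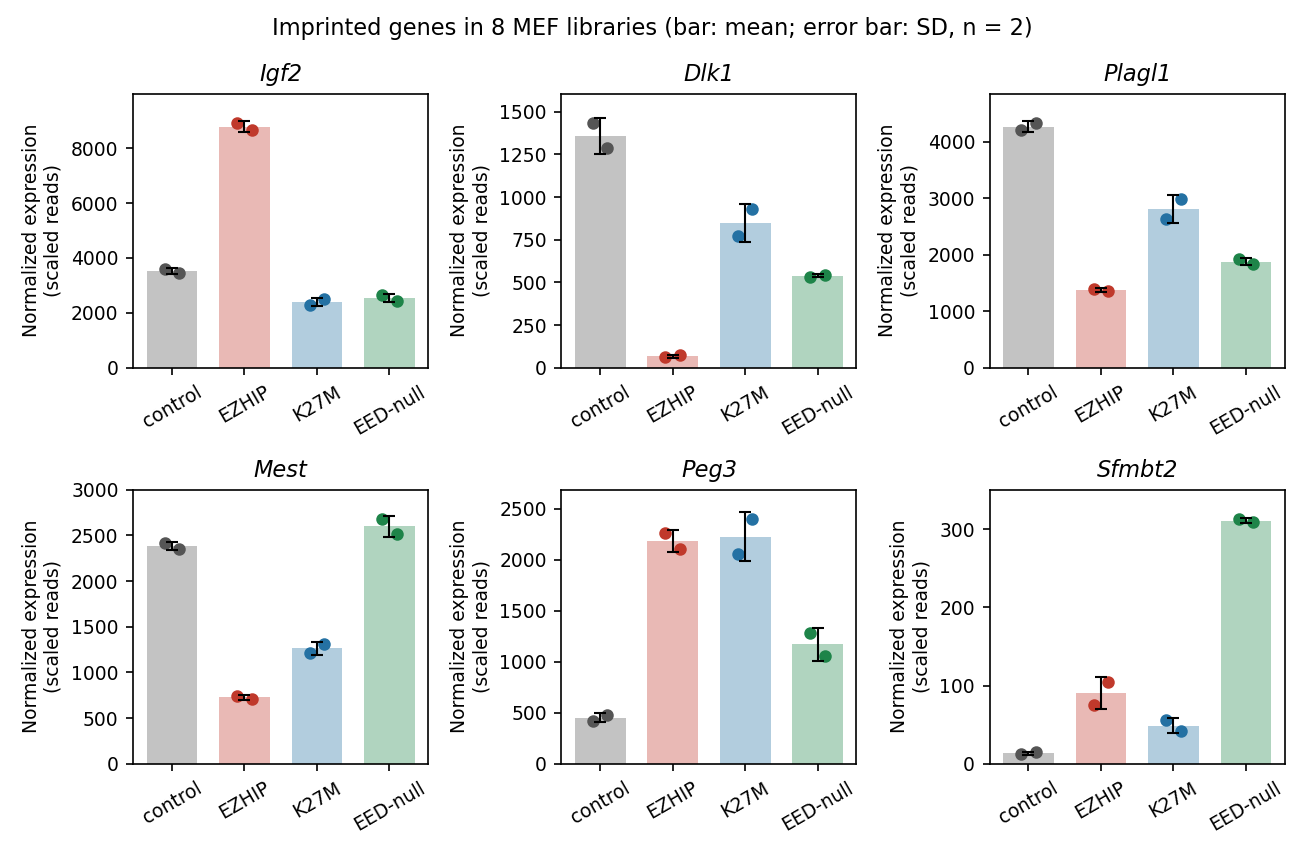
Normalized expression (estimated reads divided by the library's size factor, axes from 0) of the 6 imprinted genes in control, EZHIP, K27M and EED-null MEFs. Points are libraries, bars are means and error bars are the SD of 2 libraries. EZHIP libraries are highest for *Igf2*, at 8644 and 8919, and lowest for *Dlk1*, *Plagl1* and *Mest*, while *Sfmbt2* is highest in the EED-null libraries, at 309 and 313.

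*Plagl1* and *Peg3* encode zinc finger proteins that regulate transcription. PLAGL1, also called ZAC1, restrains the cell cycle and is known as a regulator of other imprinted genes, *Igf2* among them. *Plagl1* (ENSMUSG00000019817.11, chr10:12810497-12851500 of mm9, plus strand) read 4201 and 4335 in control. It read 1403 and 1358 with EZHIP, 2635 and 2982 with K27M, and 1923 and 1833 in EED-null. The 4 groups did not overlap, and every library of the 3 altered lines was below both control libraries. In means, EZHIP stood at 1380.4 ± 32.1 (SD, n = 2), 3.09-fold below the control mean of 4268 ± 94.4. *Plagl1* fell 2.27-fold in EED-null cells, to 1878 ± 63.6 (log2 difference -1.18, standard error 0.11, adjusted p = 8.83e-05). In K27M cells, at 2809 ± 245, it was 1.52-fold below control (log2 difference -0.61, adjusted p = 0.00215) and was not called. With libraries rescaled to a common median, *Plagl1* was called lower in K27M than in control (-1.23). K27M was called higher than EZHIP by 2.03-fold (log2 difference 1.02, adjusted p = 2.12e-04), a difference close to the threshold that read 0.998 and 0.933 without EZHIP replicate 2 and without K27M replicate 2, where it was not called. In the order control, K27M, EED-null and EZHIP, each step had an adjusted p under 0.05, with log2 steps of 0.61, 0.58 and 0.44. That order was taken from the same means, and the table was selected on EZHIP against control, so these p-values are not independent of it. With libraries rescaled to a common median, the step from EED-null to EZHIP was 0.22 and did not pass (adjusted p = 0.0906), nor did it without EED-null replicate 1 (0.41, adjusted p = 0.0545). With libraries rescaled, K27M was above EZHIP by 0.60 and was also not called.

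*Peg3*, whose protein takes part in p53 and NF-kappaB signalling and whose loss in mice affects growth and maternal behaviour, went in the opposite direction. The gene (ENSMUSG00000002265.8) lies at chr7:6656603-6683132 on the minus strand of mm9. It read 424 and 482 in control, 2259 and 2111 with EZHIP, 2056 and 2402 with K27M, and 1285 and 1056 in EED-null. Every library of the altered lines was above both control libraries, and the EZHIP and K27M libraries overlapped. *Peg3* rose 4.92-fold in K27M cells, from 453 ± 41.0 (SD, n = 2) to 2229 ± 245 (log2 difference 2.30, standard error 0.15, adjusted p = 2.22e-05), and 2.58-fold in EED-null cells, to 1171 ± 162 (log2 difference 1.36, adjusted p = 2.23e-04), a call that was lost with libraries rescaled to a common median (0.94). In EZHIP cells the mean was 2185 ± 105, which is 4.82-fold the control mean. K27M and EZHIP differed by 0.03 on the log2 scale (95% interval -0.34 to 0.39, adjusted p = 0.885), a sign that turned to -0.39 with libraries rescaled to a common median. EED-null was below EZHIP by 1.87-fold (adjusted p = 0.00239) and below K27M by 1.90-fold (adjusted p = 0.00169), both under the 2-fold threshold. Without EED-null replicate 1 both were called (log2 differences -1.05 against EZHIP and, as K27M against EED-null, 1.07), as was K27M against EED-null without K27M replicate 1 (1.04) and EED-null against EZHIP with libraries rescaled (-1.13).

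*Dlk1* encodes a transmembrane protein of the Notch ligand family, also called Pref-1, which holds preadipocytes undifferentiated. The gene (ENSMUSG00000040856.11) lies at chr12:110691033-110701546 on the plus strand of mm9. Its values were 1434 and 1284 in control, 61.5 and 74.1 with EZHIP, 771 and 929 with K27M, and 532 and 546 in EED-null. The groups did not overlap, and the EZHIP libraries were the lowest by a wide margin, with 52 and 65 estimated reads. The EZHIP mean of 67.8 ± 8.87 (SD, n = 2) was 20.04-fold below the control mean of 1359 ± 106, the greatest distance from control that EZHIP cells showed among the 6 genes. *Dlk1* fell 2.52-fold in EED-null cells, to 539 ± 9.36 (log2 difference -1.33, standard error 0.15, adjusted p = 2.38e-04). In K27M cells, at 850.1 ± 112, it was 1.60-fold below control (log2 difference -0.68, adjusted p = 0.00575) and was not called. With libraries rescaled to a common median, *Dlk1* was called lower in K27M (-1.30). Both lines were called higher than EZHIP, K27M by 12.5-fold (log2 difference 3.63, adjusted p = 5.86e-06) and EED-null by 7.95-fold (log2 difference 2.98, adjusted p = 4.45e-05). K27M was 1.58-fold above EED-null (adjusted p = 0.00755), under the 2-fold threshold.

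*Sfmbt2* encodes a Polycomb group protein with malignant brain tumour repeats, which is needed for the trophoblast lineage of the placenta. The gene (ENSMUSG00000061186.8) lies at chr2:10292137-10516880 on the plus strand of mm9, holds 119 annotated microRNA genes, and has *Gm13261* on the opposite strand. It read 12.3 and 14.8 in control, 75.7 and 105 with EZHIP, 55.6 and 42.0 with K27M, and 313 and 309 in EED-null. The groups did not overlap, and the EED-null libraries stood far above the rest. Control values rested on 12 and 20 estimated reads, and EED-null values on 226 and 319. *Sfmbt2* rose 23.0-fold in EED-null cells, from 13.5 ± 1.73 (SD, n = 2) to 311 ± 2.95 (log2 difference 4.43, standard error 0.21, adjusted p = 6.11e-06), and 3.60-fold in K27M cells, to 48.8 ± 9.68 (log2 difference 1.77, adjusted p = 3.52e-04). EZHIP cells, at 90.3 ± 20.6, were 6.67-fold above control. EED-null was called higher than EZHIP by 3.45-fold (log2 difference 1.79, adjusted p = 5.75e-04), and K27M was called lower than EED-null by 6.38-fold (log2 difference -2.66, adjusted p = 6.80e-05). K27M was 1.85-fold below EZHIP (log2 difference -0.87, adjusted p = 0.00903), under the threshold. This depended on single libraries and on scaling, since K27M was called lower without EZHIP replicate 1 (-1.10), without K27M replicate 1 (-1.07) and with libraries rescaled (-1.29), and the difference did not pass without K27M replicate 2 (-0.67, adjusted p = 0.0505).

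Markers of trophoblast and pluripotent cells were given beside *Sfmbt2* because of its role in the placenta. Of 6 such markers, *Eomes* and *Tcfap2c* are in the table, and *Pou5f1*, *Nanog*, *Cdx2* and *Elf5* are not. The summed level of the 2 genes was 8.21 and 16.2 in control, 94.7 and 66.1 with EZHIP, 53.8 and 38.5 with K27M, and 653 and 721 in EED-null. *Eomes*, a T-box transcription factor of trophoblast stem cells and mesoderm, was the more abundant, with 634 and 708 in the EED-null libraries and 7.19 and 15.5 in control (log2 difference 5.85, adjusted p = 2.38e-05). Like *Sfmbt2* it was highest in EED-null and was also called higher than control in K27M (log2 difference 1.98, adjusted p = 0.00348). Its K27M and EZHIP libraries overlapped, with a difference that did not pass (log2 difference 0.39, adjusted p = 0.384). The sums outside EZHIP cells rested mostly on *Eomes*. *Tcfap2c* had another order, with 52.1 and 38.8 in EZHIP, 19.4 and 12.6 in EED-null, 1.03 and 0.738 in control and 0 and 0.874 in K27M. These stood for 1 and 1 estimated reads in control and 0 and 1 in K27M, so the 2 groups could not be compared at this depth. With libraries rescaled to a common median, limma called *Tcfap2c* lower in K27M (-1.08), a call that rests on the same reads. The part of other cell types in the *Sfmbt2* values was not tested.

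*Mest*, also called *Peg1*, encodes a protein of the alpha/beta hydrolase fold that is abundant in embryonic mesoderm. The gene (ENSMUSG00000051855.8) lies at chr6:30673547-30698457 on the plus strand of mm9, with *Copg2* on the opposite strand and 1 microRNA gene inside. It read 2413 and 2349 in control, 746 and 710.2 with EZHIP, 1213 and 1313 with K27M, and 2679.7 and 2519 in EED-null. The EED-null libraries were close above control, and the K27M and EZHIP libraries were well below it. EED-null, at 2599.6 ± 113 (SD, n = 2), and control, at 2381 ± 45.2, differed by 0.13 on the log2 scale (95% interval -0.12 to 0.37, adjusted p = 0.281), a sign that turned to -0.30 with libraries rescaled to a common median. EZHIP, at 728 ± 25.1, was 3.27-fold below control. K27M, at 1263 ± 71.0, was 1.89-fold below control (log2 difference -0.92, standard error 0.10, adjusted p = 2.48e-04) and was not called. With libraries rescaled it was called lower than control (-1.54). EED-null was called higher than EZHIP by 3.57-fold (log2 difference 1.83, adjusted p = 5.01e-05). K27M was called lower than EED-null by 2.06-fold (log2 difference -1.04, adjusted p = 1.73e-04), which read -0.984 without K27M replicate 1 and -0.997 without EED-null replicate 1, where it was not called. K27M was 1.73-fold above EZHIP (adjusted p = 5.07e-04), under the threshold.

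**Figure D3:**
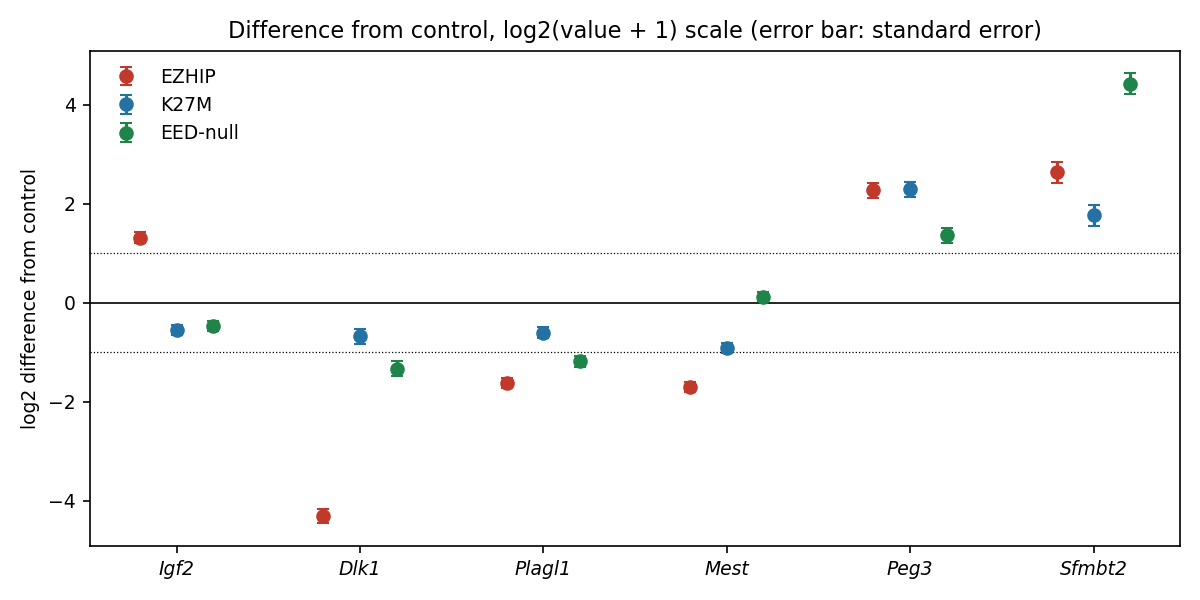
Log2 difference from control of each imprinted gene in EZHIP, K27M and EED-null MEFs on the log2(value + 1) scale. Error bars are standard errors, and dotted lines mark 2-fold in either direction. *Peg3* and *Sfmbt2* are above 0 in all 3 lines, *Dlk1* and *Plagl1* are below 0 in all 3, *Igf2* is above 0 in EZHIP alone, and *Mest* in EED-null is 0.13, or -0.30 with libraries rescaled to a common median.

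Levels can be compared between genes only per length of transcript. Divided by the annotated length in kb of the transcript with the longest coding sequence, control levels were 936 for *Mest*, 811 for *Plagl1*, 746 for *Igf2*, 292 for *Dlk1*, 52.1 for *Peg3* and 1.72 for *Sfmbt2*. *Dlk1* and *Sfmbt2* have shorter transcripts with the same coding length, with which their control levels per kb would be 798 and 4.37. *Dlk1* would then stand with *Mest*, *Plagl1* and *Igf2*. In EZHIP cells the order per kb was led by *Igf2* at 1860, with *Mest* at 286, *Plagl1* at 262 and *Peg3* at 251, and *Dlk1* at 14.6 was close to *Sfmbt2* at 11.5. In K27M cells *Plagl1* at 534, *Igf2* at 508 and *Mest* at 497 were close together, while *Dlk1* was at 183 by its longer transcript and at 499, among them, by its shorter one. *Peg3* was at 256 in K27M cells. In EED-null cells *Mest* led at 1022, followed by *Igf2* at 539 and *Plagl1* at 357, with *Peg3* at 135 and *Dlk1* at 116 or, by its shorter transcript, 316. With the shorter transcripts, *Dlk1* and *Sfmbt2* in EZHIP cells would be at 39.8 and 29.2.

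In K27M against control, *Peg3* and *Sfmbt2* were called higher, 2 of 6 beside 41.4% of all 875 genes, and 0 of 6 were called lower by limma beside 20%. At an unadjusted p under 0.05 with no fold threshold, the other 4 genes were lower, 4 of 6 beside 28.8%. Scaling bears on this count. The median log2 level of all genes was 0.62 higher in K27M libraries than in control. With libraries rescaled to a common median, *Igf2* (-1.18), *Dlk1* (-1.30), *Plagl1* (-1.23) and *Mest* (-1.54) were called lower, 4 of 6 beside 29.8% of all genes, and *Peg3* (1.67) and *Sfmbt2* (1.15) were called higher beside 31.4%. The share of higher genes among those called moved from 67.4% to 51.3%. By its construction, a common median over the listed genes lowers every difference of a group whose median was higher. The share of higher calls falls with it. Since these genes were selected on EZHIP against control, their median is no neutral reference. The values on either scale are therefore given side by side.

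In EED-null against control, *Peg3* and *Sfmbt2* were called higher, 2 of 6 beside 39.9% of all genes, and *Dlk1* and *Plagl1* were called lower, 2 of 6 beside 25.1%. The median of all genes was 0.43 higher in EED-null libraries. Relative to it, *Peg3* was higher by 0.94 and was no longer called, while *Sfmbt2* (4.001), *Dlk1* (-1.76) and *Plagl1* (-1.61) were, 1 of 6 higher beside 35% of all genes and 2 of 6 lower beside 32.8%. The share of higher genes among those called moved from 61.3% to 51.6%. EZHIP libraries were above control by 0.20 in the same measure. The median log2 difference of the 6 genes was -0.58 in K27M against control, where that of all 875 genes was 0.58, and -0.17 in EED-null against control, where that of all genes was 0.40. K27M and EED-null were both set against the same control libraries.

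Against EZHIP, the K27M line was called higher in *Dlk1* and *Plagl1*, 2 of 6 beside 32.6% of all genes, and lower in *Igf2*, 1 of 6 beside 26.2%. With libraries rescaled, *Dlk1* alone was called higher, beside 24.8%, and *Igf2* and *Sfmbt2* were called lower, beside 35.1%, and the share of higher genes among those called moved from 55.4% to 41.4%. The EED-null line was called higher than EZHIP in *Dlk1*, *Mest* and *Sfmbt2*, 3 of 6 beside 25.1%, and lower in *Igf2*, 1 of 6 beside 19.8%. With libraries rescaled, the same 3 genes were called higher, beside 20.3%, and *Igf2* and *Peg3* were called lower, beside 24.9%, with a move of the share from 56.0% to 44.9%. The median of all genes was 0.42 higher in K27M and 0.23 higher in EED-null than in EZHIP libraries.

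K27M against EED-null is the comparison that the choice of the table did not use. *Mest* and *Sfmbt2* were called lower in K27M, 2 of 6 beside 26.6% of all genes, and 0 of 6 were called higher by limma beside 27.8%. At an unadjusted p under 0.05, *Peg3*, *Dlk1* and *Plagl1* were higher in K27M, each in both libraries and by less than 2-fold, 3 of 6 beside 40% of all genes. Which genes were called depended on single libraries. Without K27M replicate 1, *Peg3* was called higher (1.04) and *Mest* was not called (-0.98), and without EED-null replicate 1 the same held (1.07 and -0.997). The median of all genes was 0.19 higher in K27M libraries, and with libraries rescaled the differences were 0.74 for *Peg3*, 0.46 for *Dlk1*, 0.38 for *Plagl1*, -0.28 for *Igf2*, -1.24 for *Mest* and -2.86 for *Sfmbt2*, so that *Mest* and *Sfmbt2* were again called lower, beside 30.6%, and 0 of 6 were called higher by limma beside 25.3%. The median log2 difference was 0.25 over the 6 genes and 0.01 over all 875. With the adjusted p alone and no fold threshold, most genes of the table passed in either direction. The members that passed were 6 of 6 in K27M against control beside 79.4% of all genes, 5 in EED-null against control beside 83.3%, 5 in K27M against EZHIP beside 81.1%, 6 in EED-null against EZHIP beside 68.7%, and 5 in K27M against EED-null beside 77.6%.

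**Figure D4:**
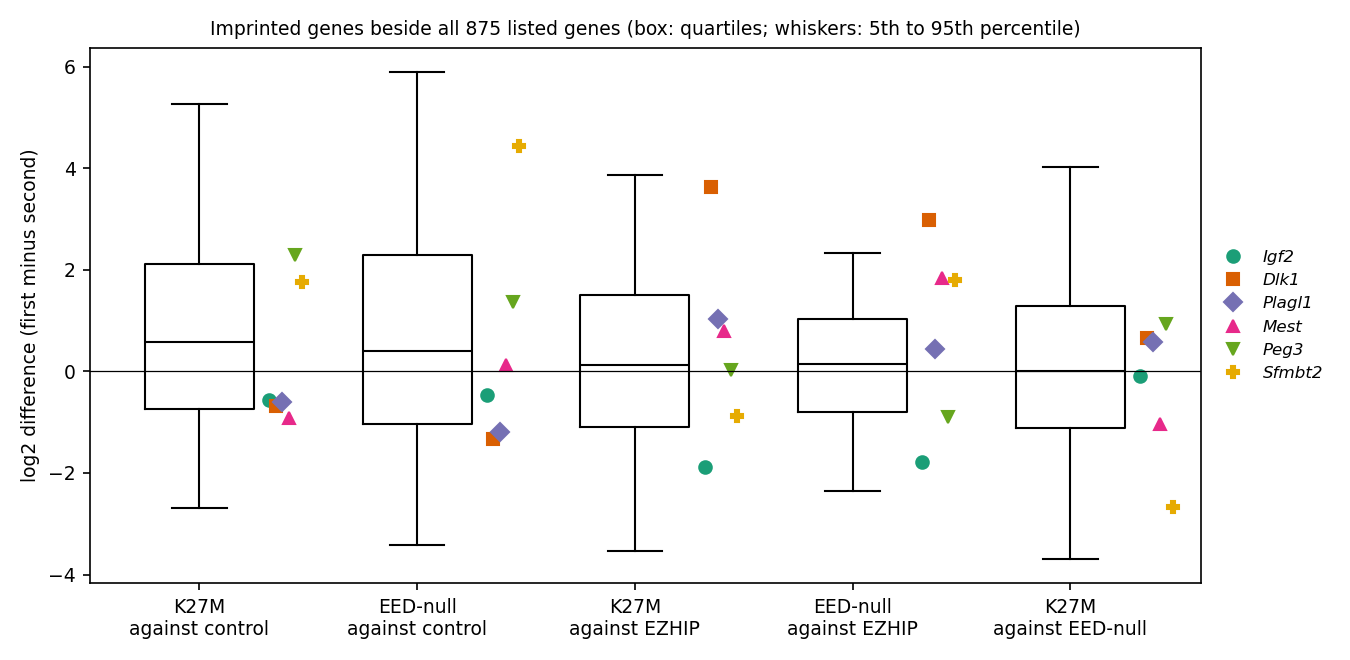
Log2 differences of the 6 imprinted genes (points) beside those of all 875 genes in the 5 tested comparisons. Boxes span the quartiles with the median as a line, and whiskers reach the 5th and 95th percentiles. *Dlk1* lies above the 95th percentile of EED-null against EZHIP (2.98 beside 2.34), and the points of K27M against control lie between -0.92 and 2.30.

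A catalogue of 90 imprinted genes had 10 in the table, of which 8 are paternally and 2 maternally expressed. The 4 genes beyond the 6 above were *Zdbf2*, *Rtl1*, *Asb4* and *Dcn*. *Zdbf2*, a paternally expressed zinc finger gene with a role in growth after birth, read 107 and 96.0 in control, 1687 and 1662 with EZHIP, 572 and 628 with K27M, and 3444 and 3419 in EED-null. The groups did not overlap, and they stood in the same order as for *Sfmbt2*, with control lowest, then K27M, EZHIP and EED-null. *Zdbf2* rose in K27M (log2 difference 2.55, adjusted p = 4.64e-06) and in EED-null (log2 difference 5.07, adjusted p = 3.08e-07), and K27M was called lower than EED-null (log2 difference -2.51, adjusted p = 6.56e-06). *Asb4*, a maternally expressed gene for a protein of ubiquitin ligases, read 319.7 and 336 in control, 134 and 152 with EZHIP, 93.7 and 91.8 with K27M, and 248 and 228 in EED-null. It fell in K27M (log2 difference -1.81, adjusted p = 1.77e-05), and its log2 difference of -0.46 in EED-null was under the fold threshold. *Dcn*, the matrix proteoglycan decorin, is imprinted in mouse placenta and is a marker of fibroblasts. It read 364 and 380.1 in control, 129 and 179 with EZHIP, 3192 and 3255 with K27M, and 69.3 and 73.6 in EED-null, so that it rose in K27M (log2 difference 3.11, adjusted p = 1.1e-05) and fell in EED-null (log2 difference -2.36, adjusted p = 2.95e-05).

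*Rtl1*, a retrotransposon-derived gene of placental vessels, is paternally expressed and starts 148 kb from the start of *Dlk1*, in the same imprinted domain. It read 83.2 and 90.1 in control, 3.55 and 0 with EZHIP, 32.5 and 43.7 with K27M, and 165 and 119 in EED-null. The EZHIP values stood for 3 and 0 estimated reads, so no fold against them is given. *Rtl1* was called higher than EZHIP in K27M (adjusted p = 0.00145) and in EED-null (adjusted p = 4.61e-04), as was *Dlk1*. K27M was called lower than EED-null for *Rtl1* (log2 difference -1.87, adjusted p = 0.0407), while for *Dlk1* K27M was higher by less than 2-fold. The *Rtl1* call was lost without either library of control, K27M or EED-null, where adjusted p ranged from 0.058 to 0.154, and with a pseudocount of 0.1 (adjusted p = 0.318). Against control, the *Rtl1* differences of -1.18 in K27M (adjusted p = 0.148) and 0.69 in EED-null (adjusted p = 0.363) did not pass. The EED-null difference, under 2-fold, had an adjusted p of 0.0389 in a fit of those groups alone and 0.033 without either EZHIP library. The K27M difference was called lower with a pseudocount of 5 (-1.10), with libraries rescaled (-1.80, adjusted p = 0.0431), in a fit of K27M and control alone (adjusted p = 0.00711) and without either EZHIP library (adjusted p = 0.00516). In all, 3 of the 8 paternally expressed genes were called higher and 0 lower by limma in K27M against control, beside 41.4% and 20% of all genes. At an unadjusted p under 0.05 with no fold threshold, 4 were lower, beside 28.8% of all genes. With libraries rescaled 3 were higher and 5 lower, beside 31.4% and 29.8%. In EED-null against control 3 were called higher and 2 lower, beside 39.9% and 25.1%, and with libraries rescaled 2 and 2, beside 35% and 32.8%.

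**Figure D5:**
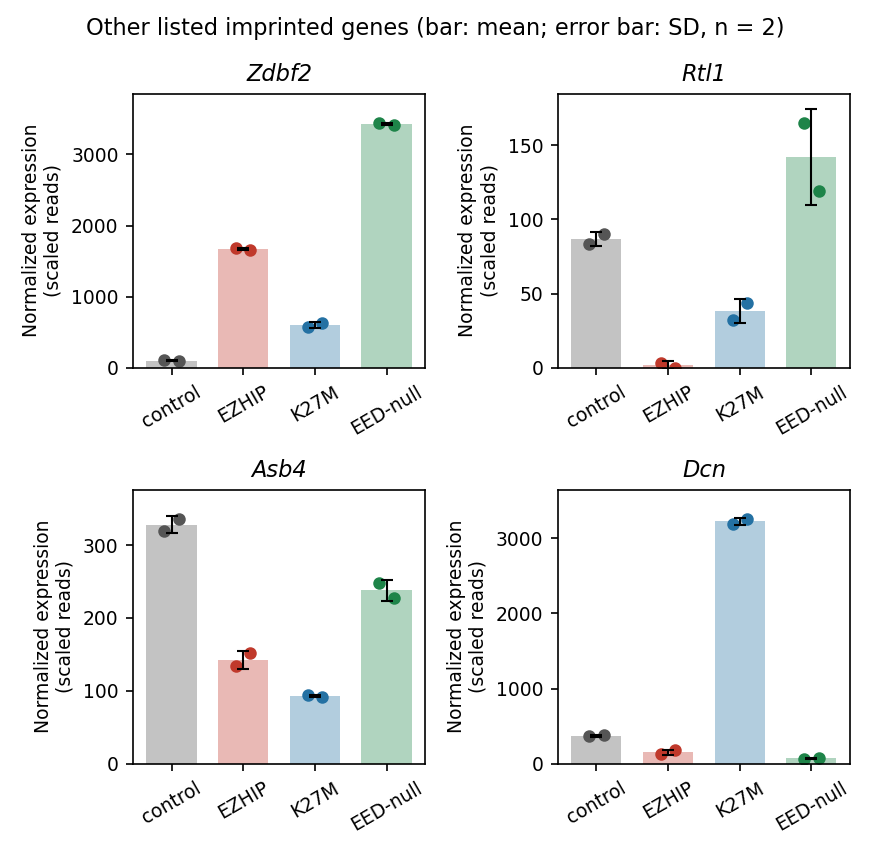
Normalized expression (estimated reads divided by the library's size factor, axes from 0) of the 4 further imprinted genes of the table. Points are libraries, bars are means and error bars are the SD of 2 libraries. *Zdbf2* is highest in EED-null, at 3419 and 3444, *Rtl1* is near 0 in EZHIP, *Asb4* is highest in control, and *Dcn* is highest in K27M, at 3192 and 3255.

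Within 1 Mb of the starts of the 6 genes the table holds few others. *Igf2* and *Peg3* had 0 of 61 and 0 of 55 annotated neighbours in the table, *Dlk1* had 1 of 103 (*Rtl1*), *Mest* 1 of 52 (*Podxl*), *Plagl1* 1 of 17 (*Phactr2*) and *Sfmbt2* 1 of 144 (*Itih5*). *Podxl*, a sialomucin of podocytes and endothelium, starts 840.4 kb from *Mest* and read 66.7 and 68.6 in control, 463 and 407 with EZHIP, 2926 and 3885 with K27M, and 222 and 218 in EED-null. It was called higher in K27M (log2 difference 5.62, adjusted p = 1.2e-06) and in EED-null (log2 difference 1.69, adjusted p = 1.07e-04), where *Mest* was not. *Itih5*, a hyaluronan-binding matrix protein gene 217 kb from *Sfmbt2*, read 53.4 and 70.9 in control, 4.73 and 7.98 with EZHIP, 52.9 and 57.7 with K27M, and 33.3 and 25.2 in EED-null. It fell in EED-null (log2 difference -1.06, adjusted p = 0.00973), where *Sfmbt2* rose, and it was not called without control replicate 2 (-0.86), without EED-null replicate 2 (-0.87) or with a pseudocount of 5 (-0.97). *Phactr2*, a regulator of protein phosphatase 384 kb from *Plagl1*, was not called against control in either line, with log2 differences of 0.50 in K27M (-0.12 with libraries rescaled) and -0.27 in EED-null.

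The insulin-like growth factor pathway had 7 of 27 genes in the table. Against control, 1 was called higher and 1 lower in K27M, where 41.4% and 20% of all genes were, and 3 higher and 3 lower in EED-null, where 39.9% and 25.1% were. The median log2 difference of the 7 was -0.16 in K27M and -0.47 in EED-null, beside 0.58 and 0.40 over all genes. With libraries rescaled, 1 was higher and 3 lower in K27M (31.4% and 29.8% of all genes), where *Igf2* and *Plagl1* joined the lower genes, and 2 higher and 3 lower in EED-null (35% and 32.8%). The second ligand gene of the pathway in the table, *Igf1*, read 2822 and 2909 in control, 647 and 670.3 with EZHIP, 2727 and 2420.1 with K27M, and 1257 and 1267 in EED-null, and it fell in EED-null (log2 difference -1.18, adjusted p = 7.92e-05). Both ligand genes were below control by their means in K27M and EED-null, though the *Igf1* difference in K27M did not pass (log2 difference -0.16, adjusted p = 0.204). The EZHIP libraries were the highest of all 8 for *Igf2* and the lowest for *Igf1*. Of the binding proteins, *Igfbp2* read 356 and 342 in control, 5184 and 5225 with EZHIP, 588 and 594 with K27M, and 3891 and 4088 in EED-null, and it rose in EED-null (log2 difference 3.51, adjusted p = 7.67e-07). *Igfbp5* read 3779 and 3601 in control and between 324 and 1040.3 in the other 6 libraries, and it fell in K27M (log2 difference -1.93, adjusted p = 1.45e-05) and in EED-null (log2 difference -3.47, adjusted p = 1.64e-06). *Stc2*, whose product inhibits a protease of the binding proteins, rose in K27M (log2 difference 6.33, adjusted p = 3.73e-05) and in EED-null (log2 difference 3.47, adjusted p = 5.68e-04) from control values of 2.05 and 7.38. The serine protease gene *Htra1* rose in EED-null (log2 difference 1.21, adjusted p = 9.07e-05) but was not called with libraries rescaled (0.78). *Plagl1*, described above, completes the 7.

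The Notch pathway had 8 of 32 genes in the table. In K27M against control 1 was called higher and 4 lower, beside 41.4% and 20% of all genes, and in EED-null 2 higher and 5 lower, beside 39.9% and 25.1%. The median log2 difference of the 8 was -1.12 in K27M and -1.51 in EED-null, where that of all genes was 0.58 and 0.40. With libraries rescaled, 1 was higher and 7 lower in K27M, beside 31.4% and 29.8%, and 2 were higher and 6 lower in EED-null, beside 35% and 32.8%. *Dlk1* was among the 5. The ligand gene *Jag1* read 1498 and 1428 in control, 429.6 and 407 with EZHIP, 211 and 225 with K27M, and 94.3 and 66.9 in EED-null, and it fell in both tested lines (log2 differences -2.74 and -4.19). The target gene *Heyl* read 193 and 206 in control and between 2.77 and 20.1 in the other 6 libraries, and *Hey1* read 301 and 249 in control and between 13.7 and 40.2 in the others. Both fell in K27M (-3.58 and -3.00) and in EED-null (-5.30 and -2.86), with adjusted p-values between 1.05e-04 and 6.8e-04. *Hey2* differed from them in EZHIP cells, where it read 66.3 and 46.7 beside 17.5 and 17.0 in control, 3.28-fold higher in means. It fell in EED-null (log2 difference -1.69), and in K27M its difference of -0.94 was under the fold threshold. It passed that threshold with libraries rescaled (-1.57), with a pseudocount of 0.1 (-1.02) and without K27M replicate 1 (-1.19). *Jag2* rose in both lines (log2 differences 4.80 and 3.03). *Dlk2*, the paralog of *Dlk1*, read 16.4 and 19.9 in control, 144 and 136 with EZHIP, 6.49 and 6.99 with K27M, and 94.3 and 99.8 in EED-null. It thus had its highest values in the EZHIP libraries, in which *Dlk1* was lowest, and it fell in K27M (log2 difference -1.30, adjusted p = 1.32e-04, or -0.98 and not called with a pseudocount of 5) and rose in EED-null (log2 difference 2.36, adjusted p = 9.78e-06). The coactivator gene *Maml2* was below control by less than 2-fold on the log2(value + 1) scale in both lines (-0.87 and -0.95). With libraries rescaled it was called lower in both (-1.50 and -1.38), as it was in EED-null, just at the threshold, without EED-null replicate 1.

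Of 45 Polycomb subunit genes 5 were in the table, with *Sfmbt2* as the only one called higher in both K27M and EED-null. Against control, 2 were called higher and 1 lower in K27M, and 1 higher and 2 lower in EED-null. These are shares of 5 genes, to be read beside 41.4% and 20% of all genes in K27M and 39.9% and 25.1% in EED-null. Their median log2 difference was 0.19 in K27M and -0.43 in EED-null. *Pcgf5*, of variant Polycomb repressive complex 1, rose in K27M (log2 difference 2.09, adjusted p = 2.17e-05) and read 0.74 in EED-null, under the fold threshold. *L3mbtl3*, which like *Sfmbt2* encodes malignant brain tumour repeats, fell in K27M (log2 difference -1.71, adjusted p = 1.36e-05) and in EED-null (log2 difference -1.87, adjusted p = 9.17e-06). *Scml2* fell in EED-null (log2 difference -1.18, adjusted p = 5.1e-04) and with libraries rescaled was also called lower in K27M (-1.28), which made 2 higher and 2 lower there beside 31.4% and 29.8%. *Phf19*, an accessory subunit of Polycomb repressive complex 2, was not called against control in K27M or EED-null. In EZHIP cells it read 112 and 123 beside 311 and 275 in control, and K27M was called higher than EZHIP (log2 difference 1.49, adjusted p = 7.16e-05).

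Of 21 genes of fat cell differentiation, in which DLK1 and MEST have known roles, 7 were in the table. Against control, 3 were called higher and 1 lower in K27M, close to the 41.4% and 20% of all genes, and 2 higher and 2 lower in EED-null, beside 39.9% and 25.1%. Their median log2 difference was 0.17 in K27M and 0.13 in EED-null. With libraries rescaled, 2 were higher and 3 lower in K27M, beside 31.4% and 29.8%, with *Dlk1* and *Mest* among the lower. The early adipogenic factor genes *Cebpb* and *Cebpd* rose in K27M (log2 differences 1.92 and 1.25), and in EED-null their differences of 0.24 and -0.05 did not pass. With libraries rescaled *Cebpd* was not called in K27M (0.63) and *Cebpb* was at -0.19 in EED-null, and the *Cebpd* difference in EED-null was above 0 without control replicate 2 (0.036) or EED-null replicate 1 (0.19). *Zfp423*, a factor of preadipocyte commitment, rose in both lines (log2 differences 3.32 and 2.91) from 28.7 and 19.9 in control, while *Ebf1* fell in both (-2.81 and -1.79). *Sox9* rose in EED-null (log2 difference 1.70, adjusted p = 3.79e-04) and did not pass in K27M.

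Of 16 fibroblast markers, *Col3a1* and *Dcn* were in the table, so the identity of the cells could not be checked against the others. Their summed level was 18029.7 and 17625 in control, 6926 and 6447 with EZHIP, 5398 and 5772 with K27M, and 5802 and 5715 in EED-null. The more abundant, *Col3a1*, encodes a fibrillar collagen and fell in K27M (log2 difference -2.89) and in EED-null (log2 difference -1.62). *Dcn* went the opposite way in K27M, where it rose (log2 difference 3.11), and fell in EED-null (log2 difference -2.36). Of 6 endothelial markers only *Kdr* was in the table, with 9.24 and 9.60 in control, 52.1 and 51.3 with EZHIP, 157 and 222 with K27M, and 11.1 and 10.7 in EED-null. The summed level of the epithelial markers *Epcam* and *Krt14*, 2 of 6, was 6.16 and 3.69 in control, 59.2 and 36.5 with EZHIP, 109 and 141 with K27M, and 43.0 and 24.4 in EED-null, with *Epcam* the more abundant outside EZHIP cells, where *Krt14* was, at 37.9 and 26.2 beside 21.3 and 10.3. *Krt14* was listed at 0 in both control libraries. Of 6 neural markers only *Sox2* was in the table. It was listed at 0 in the control and K27M libraries and read 166 and 137 in EZHIP and 245 and 270.2 in EED-null. None of 6 macrophage and blood markers and none of 6 muscle markers was in the table. The part of these changes in the values of the 6 genes was not tested.

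Genes with the most similar profile to each imprinted gene were taken by Pearson's r of log2(value + 1) over the 8 libraries. The 8 libraries form only 4 groups, so r is a description with no test. Between 2.29% and 10.2% of genes had r over 0.9 with a given member. For *Igf2* the nearest were *Rps6ka2* (0.991), *Pstpip2* (0.986) and *Atp8b1* (0.978), and 2.29% of genes had r over 0.9. *Rps6ka2*, which encodes a ribosomal S6 kinase, had means of 297 in control, 663 with EZHIP, 215 with K27M and 206 in EED-null. For *Plagl1* they were *Ptprd* (0.997), *Sash1* (0.991) and *Hvcn1* (0.988), with 5.72% of genes over 0.9. *Ptprd*, a receptor tyrosine phosphatase gene, had means of 2585 in control, 803 with EZHIP, 1589 with K27M and 1149 in EED-null.

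For *Dlk1* they were *Aatk* (0.997), *Tet1* (0.991) and *Chl1* (0.989), with 5.61% over 0.9. The nearest, *Aatk*, had means of 394 in control, 111 with EZHIP, 325 with K27M and 261 in EED-null. *Tet1*, which encodes an oxidase of methylated cytosine, had means of 352 in control, 148 with EZHIP, 318 with K27M and 281 in EED-null. *Mest* was nearest to *Adam19* (0.994), *Scara3* (0.993) and *Stmn2* (0.982), with 3.66% over 0.9, and the metalloprotease gene *Adam19* had means of 806 in control, 209 with EZHIP, 430.4 with K27M and 808 in EED-null. *Peg3* was nearest to *Trib1* (0.988), *Hbegf* (0.986) and *Ngef* (0.986), with 8.35% over 0.9. The nearest, *Trib1*, had means of 90.3 in control, 309 with EZHIP, 317 with K27M and 172 in EED-null. *Hbegf*, a growth factor gene of the EGF family, had means of 71.0 in control, 192 with EZHIP, 209 with K27M and 143 in EED-null. *Sfmbt2* was nearest to *Kif1a* (0.991), *Pgm5* (0.991) and *1810011O10Rik* (0.990), with 10.2% over 0.9, and the kinesin gene *Kif1a* had means of 58.1 in control, 270.1 with EZHIP, 155 with K27M and 955 in EED-null.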

How the data were processed

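The authors sequenced rRNA-depleted RNA, mapped the reads to mm9 transcripts and estimated reads per gene with RSEM 1.2.4, by the labels and the study's methods. The deposited signal, called normalized expression here, is those estimated reads divided by 1 size factor per library. Spike-in RNA of another cell type was added, and its use in the size factors is not stated. The authors selected the 875 genes with EBSeq, so no other gene was tested.

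Values were analysed as log2(value + 1), which understates changes of low genes, in a limma 3.58.1 model (R 4.3.3) that fitted each group's mean to all 8 libraries together. Benjamini-Hochberg adjustment covered the 875 genes. Estimated reads were recovered from the value of 1 read in each library, and since between 72.2% and 82.5% of values were whole reads (within 0.005 of a read), no count model was fitted. Replicates differed by more than sampling noise, with a chi-square per gene between 1.58 and 3.73. Depth was judged on the listed genes alone. Python 3.11.15, pandas 2.3.3 and numpy 2.4.6 gave means, SDs and correlations, and matplotlib 3.10.9 the figures. Folds are ratios of group means.

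Positions are from the GENCODE annotation of mm9, and promoter windows from RefSeq on GRCm38.p6. Named genes are the 6 members, listed genes of the imprinted, pathway and marker lists, 3 genes per member by correlation, and table genes starting within 1 Mb. Members and lists were chosen with earlier results of these data known. Alternatives were pseudocounts of 0.1 and 5, a mean of at least 5, rescaling to a common median, a limma trend, a replicate block, only the 2 groups compared, the adjusted p alone, and each library left out.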

Additional observations from a re-analysis of the deposited data

Results flagged for a closer look

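*Igf2* and *Mest* were picked out because their difference from control went in opposite directions in 2 lines, and limma called the difference between those lines. The genes were chosen and compared on the same values, and EZHIP, on which the table was selected, enters 3 of the 4 differences, so the p-values given for them above are not independent of either choice. *Igf2* was above control in both EZHIP libraries and below control in both K27M and both EED-null libraries. The log2 difference was -1.87 in K27M against EZHIP and -1.79 in EED-null against EZHIP. *Mest* was below control in both EZHIP and both K27M libraries and above it in both EED-null libraries, though that last difference did not pass and turned to -0.30 with rescaled libraries. Its log2 difference was 1.83 in EED-null against EZHIP and -1.04 in K27M against EED-null. The last was not called without K27M replicate 1 (-0.98) or EED-null replicate 1 (-0.997). The cause of these differences was not tested.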

How the results depend on the processing

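Of 480 values of the 6 genes in tested comparisons under the alternatives, 447 kept their direction and their side of the threshold, 6 were no longer called, 23 became called and 4 changed sign. Rescaling to a common median raised the members called in K27M against control from 2 to 6, while 537 and 536 of all 875 genes were called. With the adjusted p alone, where no fold was required and between 68.7% and 83.3% of all genes passed, 6 were called there, 5 in EED-null against control (from 4), 5 in K27M against EZHIP (from 3), 6 in EED-null against EZHIP (from 4) and 5 in K27M against EED-null (from 2). The sign changes were in differences that had not passed. They were *Peg3* in K27M against EZHIP, at -0.39 with rescaling (adjusted p = 0.0315) and between -0.087 and 0.14 with each library left out (-0.024 without EZHIP replicate 2 and -0.087 without K27M replicate 2), and *Mest* in EED-null against control, at -0.30 with rescaling (adjusted p = 0.0227). The cause of these shifts was not tested. Of 72 values of EZHIP against control, which had no test, 4 moved by more than the SD, all with rescaling.

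Of 1095 values of the other genes of the lists and neighbouring genes, 1058 kept their direction and their side of the threshold, 14 were no longer called, 13 became called and 10 changed sign, all in differences that had not been called. With rescaling, the K27M differences from control became -0.081 for *Htra1*, -0.44 for *Phf19*, -0.45 for *Sox9* and -0.12 for *Phactr2*, and the EED-null differences -0.19 for *Cebpb* and -0.24 for *Kdr*. With each library left out, the K27M difference ranged from -0.14 to 0.48 for *Sox9* (lowest without control replicate 1) and from -0.35 to 0.048 for *Itih5* (highest without control replicate 2), and the EED-null difference of *Cebpd* ranged from -0.29 to 0.19, being 0.036 without control replicate 2. *Krt14* was not called in EED-null with a pseudocount of 5 (0.86). The cause of these shifts was not tested.

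With each library left out, a lone library was assumed to vary like the other groups. The count of members called was 2 each time in K27M against control and in K27M against EED-null, though in the latter *Peg3* (1.04 and 1.07) took the place of *Mest* (-0.98 and -0.997) without K27M replicate 1 and without EED-null replicate 1. It was 4 each time in EED-null against control and ranged from 2 to 4 in K27M against EZHIP and from 4 to 5 in EED-null against EZHIP. Nothing in the labels says whether same-numbered libraries share more than a number. Over 824 genes their deviations correlated between -0.04 and 0.17 across pairs of groups, which cannot show that they share no batch. With a replicate block the counts of members called were 2, 4, 3, 4 and 2 in the order K27M against control, EED-null against control, K27M against EZHIP, EED-null against EZHIP and K27M against EED-null, the same as without it. *Sfmbt2* in control, with 12 and 20 reads, and *Rtl1* in EZHIP were limited by depth.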
